A study of Mus musculus with 12 samples.

Results

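Clusterin and osteopontin are secreted proteins encoded in the mouse by Clu (ENSMUSG00000022037, chromosome 14) and Spp1 (ENSMUSG00000029304, chromosome 5). These 2 of the 53700 genes in a table of raw read counts were chosen by their CPM (counts scaled to the library) as being among the most abundant transcripts, so their levels and ranks are given as a description, without a test. RNA was sequenced from 12 untreated cultures of intrahepatic cholangiocyte organoids, which are hollow structures of bile duct epithelium grown in Matrigel, at passage 5. The 6 mice were 3 animals homozygous for the Ndr allele of Jag1 (Jag1 Ndr/Ndr; mice 1224, 1220 and 1219) and 3 wild-type animals (WT; mice 1221, 1225 and 1223). From every mouse a hilar and a peripheral culture were derived, named for the part of the liver that was sampled, so the groups Ndr hilar, WT hilar, Ndr peripheral and WT peripheral held 3 libraries each. The labels used here give no age, sex or strain. JAG1 is a Notch ligand that guides bile duct formation, and Ndr is a missense allele studied as a model of Alagille syndrome.

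Clusterin, also called apolipoprotein J, is a chaperone that works outside the cell. It holds unfolding proteins in solution and restrains the terminal complement complex. Proprotein convertases such as furin cut its precursor into a pair of chains, and receptors of the low-density lipoprotein receptor family take it up. Osteopontin is an acidic phosphoprotein of the SIBLING family, named for small integrin-binding ligand N-linked glycoproteins. It binds integrins through an RGD motif, is a ligand of CD44, and in the adult liver is a marker of bile duct epithelium.

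The counted reads came to between 6708822 and 16030880 per library. The cultures expressed the cholangiocyte list, with Krt18 at 2576 CPM and Krt8 at 1791 CPM on average, and all 15 listed cholangiocyte genes passed the filter on low counts. Summed levels of 10 fibroblast and stellate markers were at most 1.79 CPM in Ndr hilar, 1.46 CPM in WT hilar, 0.826 CPM in Ndr peripheral and 1.60 CPM in WT peripheral libraries, and those of 7 endothelial markers were at most 0.618 CPM anywhere. Sums of 4 mesothelial markers were not near 0, at 106 to 269 CPM in Ndr hilar, 37.5 to 658 CPM in WT hilar, 360 to 602 CPM in Ndr peripheral and 100.2 to 500.4 CPM in WT peripheral libraries; nearly all of this was Msln, and Wt1 reached 26.0 CPM in an Ndr library and had 0 counts in all WT libraries. Sums of 10 hepatocyte markers were at 56.1 to 101 CPM in Ndr hilar, 4.65 to 82.2 CPM in WT hilar, 51.7 to 186 CPM in Ndr peripheral and 12.3 to 78.4 CPM in WT peripheral libraries. These sums mix members that went opposite ways in hilar cultures. Ttr averaged 42.8 ± 15.4 CPM in Ndr and 4.91 ± 2.86 CPM in WT hilar cultures, and Apob 6.49 ± 7.87 and 33.8 ± 29.9 CPM (SD). The part of these cell types in the comparisons was not tested. Of 10 immune markers, Adgre1 was among the 2 with no count, and the list was carried by Cd14, at 170.6 to 967.3 CPM. Jag1 averaged 141 ± 53.3 CPM in Ndr hilar, 120 ± 59.3 CPM in WT hilar, 103 ± 44.8 CPM in Ndr peripheral and 128 ± 44.9 CPM in WT peripheral cultures (SD, n = 3 each). A missense allele need not change the transcript level, so this does not check the genotype labels. In these bulk cultures fewer cells of a type and less RNA per cell cannot be told apart.

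Clu had the highest mean level of all genes, at 16552 ± 6439 CPM (SD over 12 libraries). Spp1 was at place 3, at 5191 ± 2739 CPM. Between and below them stood the elongation factor gene Eef1a1 at 10998 CPM, the mitochondrial gene mt-Co1 at 5055 CPM and the elongation factor gene Eef2 at 3866 CPM. The other genes of the highest 10 were ENSMUSG00000119584, which the name table did not match, at 3320 CPM, Tpt1-ps3 at 3222 CPM, Gm13456 at 3185 CPM, the iron-carrier gene Lcn2 at 3143 CPM and the chaperone gene Hsp90ab1 at 2797 CPM. Tpt1-ps3 is named as a pseudogene, and reads that it shares with its parent gene make its count uncertain. Counts such as these follow transcript length as well as number.

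**Figure D1:**
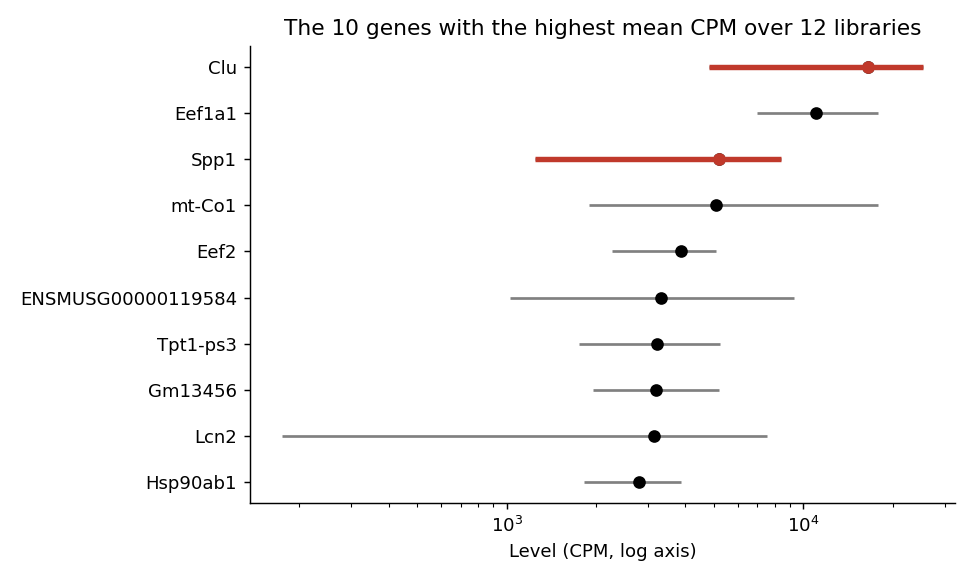
Mean level (points) and range over 12 libraries (lines) of the 10 genes with the highest mean CPM, on a log axis, with Clu and Spp1 in red. Clu averaged 16552 CPM and Spp1 5191 CPM.

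By rank within a library, Clu was the most counted gene in 9 of the 12 libraries. It was at rank 2 in the Ndr peripheral cultures of mice 1224 and 1220, and at rank 4 in the WT hilar culture of mouse 1225. Spp1 moved much further. It held ranks 5, 2 and 3 in Ndr hilar cultures and 3, 46 and 9 in WT hilar cultures (mice in the order named above). In Ndr peripheral cultures it held ranks 3, 31 and 33, and in WT peripheral cultures 4, 11 and 3.

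Per base of annotated exon the genes were closer. GENCODE M21 exons on GRCm38, joined over all transcripts of a gene, cover 3437 bases of Clu and 1648 bases of Spp1. A single transcript can be shorter, and the ratio of the genes depends on this choice of length. The reads were counted on GRCm39, so these lengths are approximate. Reads per kilobase were scaled to the same sum in every library (TPM). On that scale the ratio of Clu to Spp1 had a median of 1.68 in the 12 libraries. It lay between 1.14 and 2.33 in 10 of them, and the extremes were the Ndr peripheral cultures of mouse 1224 (0.561) and mouse 1219 (5.01). Ranked per length, Clu lay between 1 and 16 and Spp1 between 2 and 65.

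Clu was high and even in Ndr hilar cultures, at 17769 CPM in mouse 1224, 21178 CPM in mouse 1220 and 23026 CPM in mouse 1219. In WT hilar cultures it stood at 25364 CPM in mouse 1221, 4805 CPM in mouse 1225 and 19261 CPM in mouse 1223. Mouse 1225 alone was low, and the other WT hilar cultures lay above the Ndr range (mouse 1221) or inside it (mouse 1223). In Ndr peripheral cultures Clu stood at 9680 CPM in mouse 1224, 7160 CPM in mouse 1220 and 18755 CPM in mouse 1219. In WT peripheral cultures it stood at 20353 CPM in mouse 1221, 13199 CPM in mouse 1225 and 18076 CPM in mouse 1223. The peripheral ranges overlapped, with 2 Ndr cultures below every WT culture. Group means ran from 20658 ± 2667 CPM in Ndr hilar through 17210 ± 3655 CPM in WT peripheral and 16477 ± 10559 CPM in WT hilar to 11865 ± 6099 CPM in Ndr peripheral cultures (SD, n = 3 each). The ranges of all neighbours in that order overlapped.

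**Figure D2:**
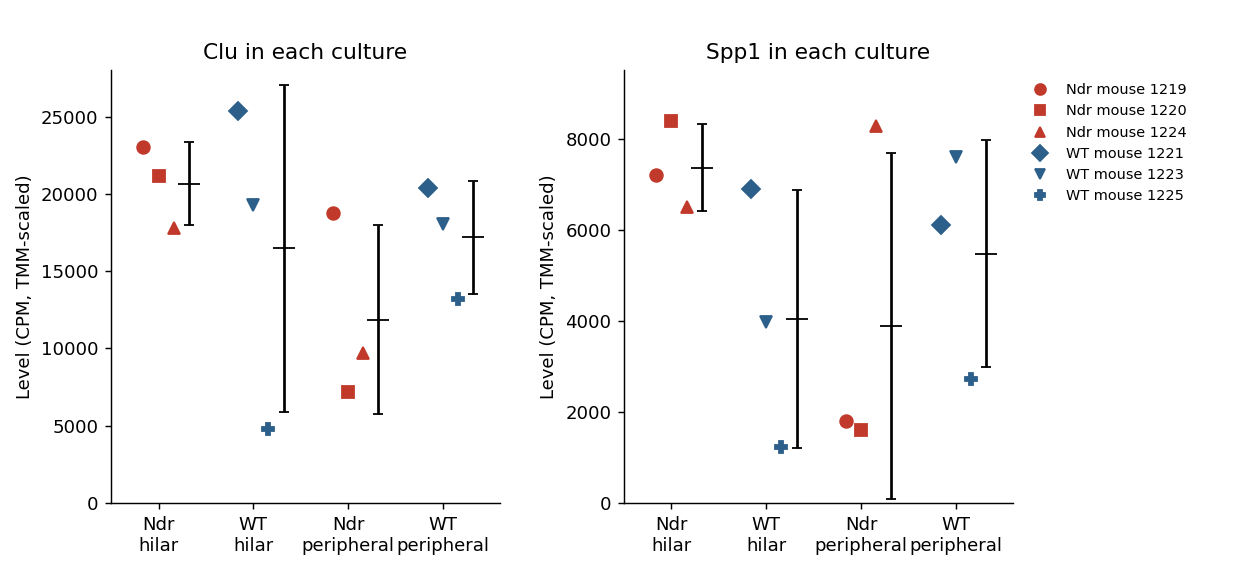
Level of Clu (left) and Spp1 (right) in each library in CPM on TMM-scaled library sizes; red symbols are Ndr and blue symbols WT mice, and the black bar beside each group is its mean ± SD (n = 3). Within Ndr hilar cultures the points lie close together for both genes, and the WT hilar culture of mouse 1225 has the lowest value of each gene.

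Spp1 stood at 6495 CPM in the Ndr hilar culture of mouse 1224, 8389 CPM in that of mouse 1220 and 7200 CPM in that of mouse 1219. In WT hilar cultures it stood at 6896 CPM in mouse 1221, 1242 CPM in mouse 1225 and 3972 CPM in mouse 1223. A single WT culture therefore reached the Ndr range. In Ndr peripheral cultures Spp1 stood at 8280 CPM in mouse 1224, 1608 CPM in mouse 1220 and 1795 CPM in mouse 1219. In WT peripheral cultures it stood at 6104 CPM in mouse 1221, 2724 CPM in mouse 1225 and 7590 CPM in mouse 1223. Mouse 1224 was above all WT peripheral cultures and the other Ndr mice were below them all. Means ran from 7362 ± 957 CPM in Ndr hilar through 5473 ± 2494 CPM in WT peripheral and 4037 ± 2828 CPM in WT hilar to 3895 ± 3799 CPM in Ndr peripheral cultures (SD, n = 3 each), and neighbours in that order overlapped. Without mouse 1224 the Ndr peripheral mean was 1702 CPM.

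Spp1 varied more between replicate cultures than most of the abundant genes. Its SD around the group means was 0.998 on the log2 scale, place 14 among the 100 genes with the highest mean CPM, and that of Clu was 0.758, place 31. The median of those 100 genes was 0.537. The coefficient of variation in Ndr hilar cultures was 12.9% for Clu and 13% for Spp1. In the other groups it was 64.1% (WT hilar), 51.4% (Ndr peripheral) and 21.2% (WT peripheral) for Clu, and 70.1%, 97.6% and 45.6% for Spp1 in the same order of groups. The difference in spread between groups was not tested.

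The design asks whether Jag1 genotype alters either gene in organoids of each region. On raw counts neither Clu nor Spp1 passed the test in either region, and the intervals were wide. In hilar cultures Clu differed by 0.33 on the log2 scale (Ndr minus WT; 95% interval -0.90 to 1.56) and Spp1 by 0.87 (-0.71 to 2.45), with adjusted p = 0.947 and 0.835 in edgeR's quasi-likelihood test. In peripheral cultures Clu differed by -0.54 (-1.77 to 0.70) and Spp1 by -0.49 (-2.06 to 1.08), both with an edgeR adjusted p of 1.0. At an adjusted p under 0.05, edgeR called 0% of 15014 genes in each region, against 0.155% (hilar) and 0.0352% (peripheral) of 28444 genes by DESeq2; 6.54% and 2.92% of the 15014 genes had an unadjusted edgeR p under 0.05. Single libraries set several of these values. The hilar difference of Clu was -0.12 without the WT culture of mouse 1225 and 0.75 without that of mouse 1221. The hilar difference of Spp1 was 0.44 without mouse 1225 and 1.47 without mouse 1221. In peripheral cultures Spp1 differed by -1.69 without the Ndr culture of mouse 1224, and by -0.13 and -0.15 without those of mice 1220 and 1219. Clu there differed by -1.03 without the Ndr culture of mouse 1219 and -0.30 without that of mouse 1220.

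With the pair of cultures of a mouse summed, Clu came to 13129, 12742 and 20576 CPM in Ndr mice 1224, 1220 and 1219. In WT mice 1221, 1225 and 1223 it came to 23509, 9488 and 18605 CPM. Spp1 came to 7577, 4351 and 4503 CPM in the Ndr mice and to 6634, 2074 and 6015 CPM in the WT mice. The genotypes overlapped for both genes. Over these mouse totals Clu differed by -0.15 (-1.12 to 0.82) and Spp1 by 0.16 (-0.95 to 1.27), with adjusted p = 0.967 and 0.970 in edgeR, which called 0% of 15401 genes (5.42% at an unadjusted p under 0.05; 0.436% of 28444 genes by DESeq2).

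**Figure D3:**
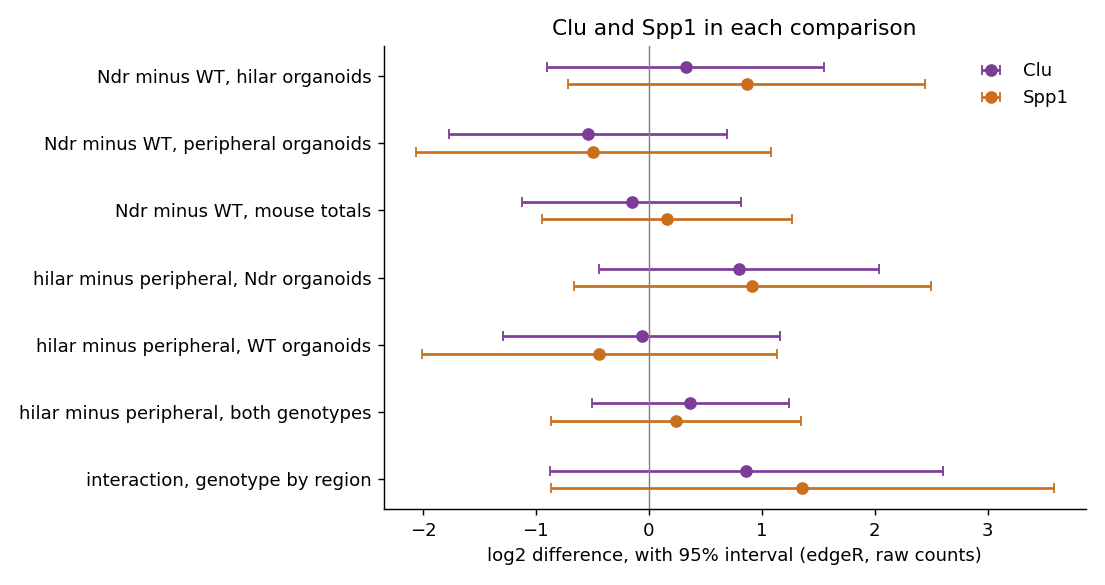
Log2 difference of Clu (purple) and Spp1 (orange) in each comparison, from edgeR on the raw counts, with 95% intervals; Ndr minus WT and hilar minus peripheral are positive where the group named in front is higher, and the interaction is the hilar minus the peripheral genotype difference. All 14 intervals include 0; the widest, for the interaction of Spp1, runs from -0.87 to 3.59.

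The derivation date of the cultures is recorded and runs with genotype. Ndr mouse 1224 and WT mouse 1225 were both derived on 21 June; Ndr mice 1220 and 1219 were derived on 18 and 17 June and WT mice 1221 and 1223 on 15 June, so this is the only date shared by the genotypes. On 21 June, Spp1 was 5.23-fold higher in the Ndr than in the WT hilar culture and 3.04-fold higher in the Ndr than in the WT peripheral culture. Among the remaining 2 mice of each genotype it averaged 7795 CPM in Ndr and 5434 CPM in WT hilar cultures, and 1702 CPM in Ndr and 6847 CPM in WT peripheral cultures. Clu on 21 June was at a ratio of 3.70 (Ndr over WT) in hilar and 0.733 in peripheral cultures, and at 0.991 and 0.674 in the remaining mice. The peripheral difference of Spp1 thus had opposite signs within and outside the shared date. With date as an additive factor in edgeR, a fit to which the paired regions of mice from the other dates also contribute, Spp1 differed by 3.21 in hilar (adjusted p = 0.392) and 1.22 in peripheral cultures (adjusted p = 1.0). The 21 June cultures alone differed by 2.39 and 1.60 on the log2 scale, without a test.

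Each mouse also allows its hilar culture to be set against its peripheral culture. Clu was higher in the hilar culture of all 3 Ndr mice, by 0.88 in mouse 1224, 1.56 in mouse 1220 and 0.30 in mouse 1219 on the log2 scale. In WT mice the hilar minus peripheral difference of Clu was 0.32 (mouse 1221), -1.46 (mouse 1225) and 0.09 (mouse 1223). Mouse 1225 was the exception among the 6. For Spp1 the difference was -0.35, 2.38 and 2.0 in Ndr mice 1224, 1220 and 1219, and 0.18, -1.13 and -0.93 in WT mice 1221, 1225 and 1223. Spp1 thus split both genotypes, with 2 Ndr mice and 1 WT mouse higher in the hilar culture.

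**Figure D4:**
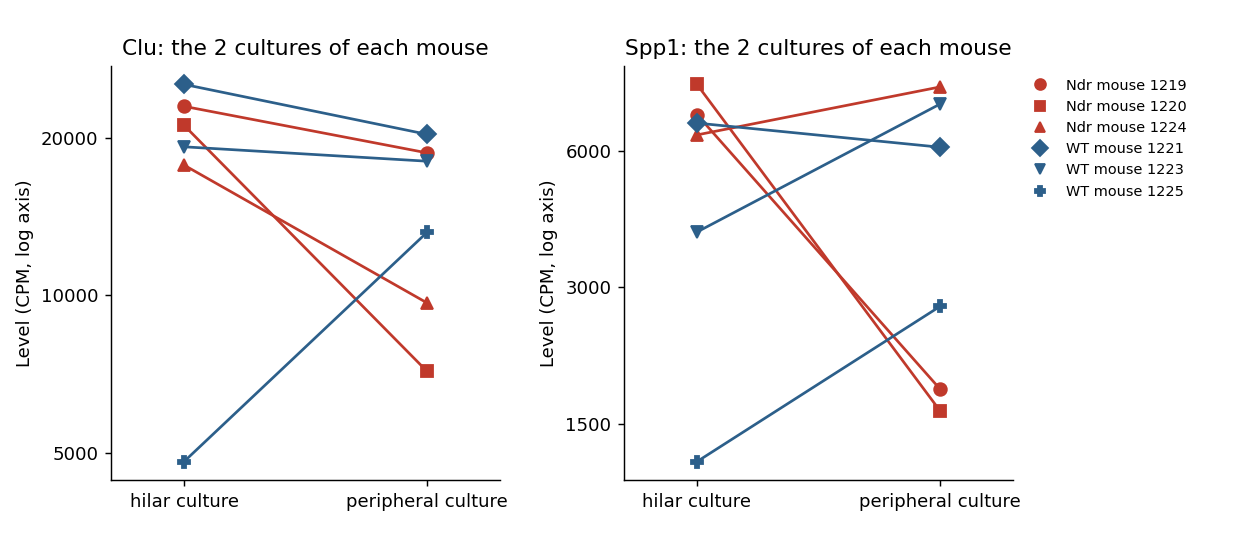
Level of Clu (left) and Spp1 (right) in CPM on log axes in the hilar and the peripheral culture of each mouse, joined by a line; red lines are Ndr and blue lines WT mice. Clu falls to the right in 5 of 6 mice, and Spp1 does so in Ndr mice 1220 and 1219 and in WT mouse 1221.

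The fit over groups took no account of the pairing by mouse. Fits with the mouse as a block are given in the last section. Over groups, hilar minus peripheral was 0.80 for Clu (-0.44 to 2.04) and 0.92 for Spp1 (-0.66 to 2.50) in Ndr organoids, with edgeR adjusted p = 0.681 and 0.720. In WT organoids it was -0.06 for Clu (-1.29 to 1.17) and -0.44 for Spp1 (-2.01 to 1.13), both at an edgeR adjusted p of 1.0. Over both genotypes it was 0.37 for Clu and 0.24 for Spp1 (edgeR adjusted p = 0.942 and 0.980). The interaction, which tests whether the genotype difference differs between regions, was 0.86 for Clu (-0.88 to 2.60) and 1.36 for Spp1 (-0.87 to 3.59), both with an edgeR adjusted p of 0.994. edgeR called 0% of 15014 genes in each of these comparisons; at an unadjusted p under 0.05 the shares were 10.3% in Ndr, 0.506% in WT, 6.07% over both genotypes and 3% for the interaction, and DESeq2 called 0.278%, 0%, 0.00703% and 0.0141% of 28444 genes. Without the Ndr peripheral culture of mouse 1224 the Ndr difference of Spp1 was 2.11 and its interaction 2.55, neither past the threshold. Without the WT hilar culture of mouse 1225 the WT difference was 0.38 for Clu and -0.01 for Spp1, and the interaction 0.44 for Clu.

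The genotype difference of Spp1 depended on which deposited table was read. In the authors' table of normalized signal, Spp1 had values of 71625, 123902 and 136074 in Ndr hilar cultures (mice 1224, 1220 and 1219), against 26697, 13339 and 12199 in WT hilar cultures (mice 1221, 1225 and 1223). These ranges did not overlap. In peripheral cultures it had 106346, 38710 and 33249 in Ndr and 23116, 34249 and 31259 in WT mice, which overlapped. That table holds whole reads divided by 1 factor per library, and the reads recovered from it are not the raw counts. For Spp1 they were 1.23 to 2.58 times the raw count in the 6 Ndr libraries. In the WT libraries they were 0.322 to 0.442 times the raw count in mice 1221 and 1223, and 1.13 and 1.33 times in mouse 1225. For Clu the ratio lay between 0.948 and 1.57 in Ndr and between 0.555 and 1.57 in WT libraries.

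On the recovered reads, Spp1 was higher in Ndr by 2.67 on the log2 scale in hilar cultures (edgeR adjusted p = 0.0118) and by 1.79 over mouse totals (edgeR adjusted p = 0.000247), and the peripheral difference was 1.0 (adjusted p = 0.487). Clu was higher in Ndr by 0.54 over mouse totals (edgeR adjusted p = 0.0388), where raw counts gave -0.15; its hilar and peripheral differences were 1.02 and 0.11 (adjusted p = 0.102 and 0.976). Of all genes, edgeR called 9.85% in hilar cultures, 0.819% in peripheral cultures and 43% over mouse totals on these reads, and 4.27%, 0.371% and 20.5% as higher in Ndr. Passing the threshold over mouse totals was thus common in that table. The edgeR fit took the recovered reads as plain counts and made no allowance for an earlier adjustment of them. Its p-values on these reads are therefore given as a description. In the adjustment that these reads match, given below, 1 mouse of each genotype sets the genotype term. By p, Spp1 stood at place 285 of 15377 genes in hilar cultures and 252 of 15698 over mouse totals, and Clu at place 6276 over mouse totals.

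**Figure D5:**
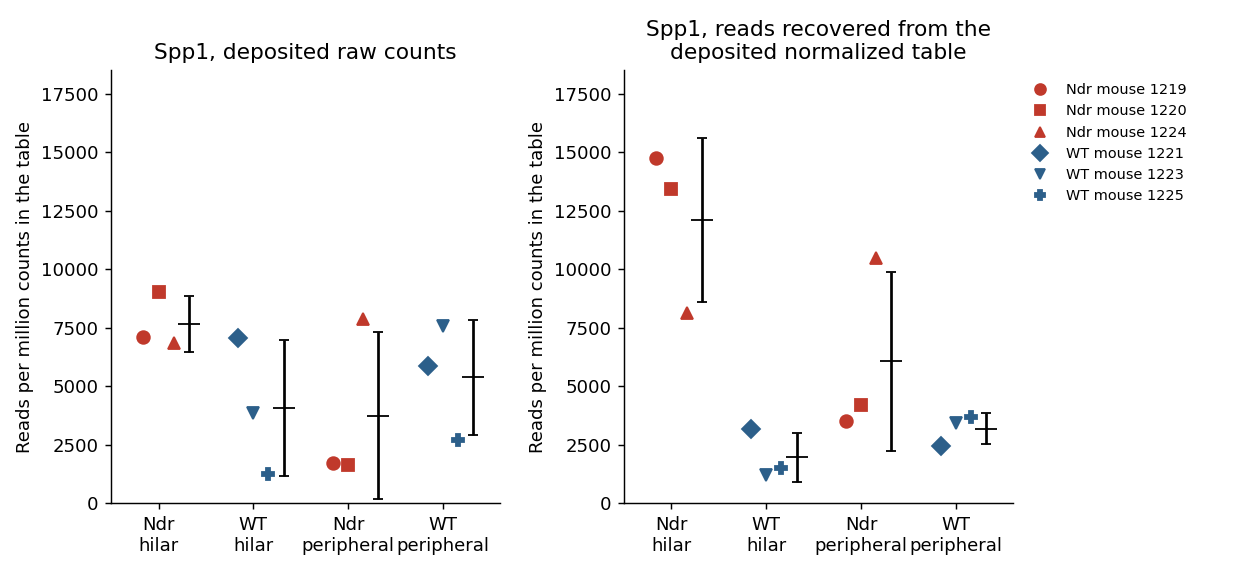
Spp1 in CPM on the total of each table, in every library, from the deposited raw counts (left) and from the reads recovered from the deposited normalized table (right), on the same axis; black bars are group means ± SD (n = 3). Hilar Ndr and WT points overlap on the left and are apart on the right, where Ndr lies between 8118 and 14762 and WT between 1213 and 3160.

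Applying ComBat-seq, a batch adjustment for counts, to the raw counts with derivation date as batch and genotype kept gave the recovered count in 99.4% of all cells of the table. The raw counts equalled it in 43.1% of cells, and the same adjustment with no genotype kept in 44.8%. With genotype kept, the adjusted counts came within 0.0759% of the recovered count of Spp1 and 0.0878% of that of Clu in every library. On those adjusted counts Spp1 differed by 2.67 in hilar cultures and 1.79 over mouse totals, where edgeR called 9.91% and 43% of genes, and 0.832% in peripheral cultures. With the same adjustment and no genotype kept, the values were 1.41 (edgeR adjusted p = 0.811) and 0.53 (adjusted p = 0.875), and edgeR called 0% of genes in both. Date and genotype share only 21 June. With date as batch and genotype kept, mice 1224 and 1225 therefore set the genotype term of the adjustment. Their raw Spp1 totals were 7577 and 2074 CPM, and their Clu totals 13129 and 9488 CPM. How much of the difference between the other mice belongs to date or to genotype cannot be told apart.

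Proliferation genes are given beside these levels because the libraries low in Clu or Spp1 were often high in them; they were chosen after values were seen. Mki67, a marker of cycling cells, stood at 20.0, 28.9 and 23.2 CPM in Ndr hilar cultures (mice 1224, 1220 and 1219) and at 61.3, 268.9 and 18.7 CPM in WT hilar cultures (mice 1221, 1225 and 1223). It stood at 86.0, 120.1 and 126.1 CPM in Ndr peripheral and at 105.5, 78.0 and 137.6 CPM in WT peripheral cultures in the same order of mice. The WT hilar culture of mouse 1225, lowest in Clu and Spp1, was highest in Mki67. The Ndr peripheral cultures of mice 1220 and 1219 stood at 1608 and 1795 CPM of Spp1. Both had more Mki67 than the WT peripheral cultures of mice 1221 and 1225, at 6104 and 2724 CPM of Spp1. Both had less Mki67 than the WT peripheral culture of mouse 1223, at 7590 CPM of Spp1. For mouse 1220 the order was otherwise in other proliferation genes. Top2a stood at 323 CPM against 225 CPM in that WT culture, Ccnb1 at 57.7 against 24.8 CPM and the replication gene Mcm6 at 182 against 137 CPM. In mouse 1219 Mcm6 (157 CPM) was above the WT culture, and Top2a (224 CPM) and Ccnb1 (20.4 CPM) were below it. Over the 12 libraries, which share mice in pairs, log2 levels of Mki67 had r = -0.62 with Clu and -0.55 with Spp1, as a description. In the same order, the DNA topoisomerase gene Top2a had r = -0.75 and -0.68, Ccnb1 -0.79 and -0.73, and Mcm6 -0.77 and -0.60. The part of proliferation in the comparisons was not tested.

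Clu and Spp1 followed each other loosely. Over the 12 libraries their log2 levels had r = 0.67 and rho = 0.50, which put Spp1 at place 671 among 11839 genes ordered by likeness to Clu. Over the 6 mouse totals, on CPM rather than log2 CPM, r was 0.492 and rho 0.600 (exact permutation p = 0.314 and 0.242, two-sided). After adjustment over 3 relations these exact permutation p were 0.819 and 0.242. Without the 2 mice farthest from the median of Clu, r was -0.312, over 4 mice with a narrower range of Clu. The hilar level of a mouse with its peripheral level gave r = 0.328 and rho = 0.600 for Clu (exact permutation p = 0.603 and 0.242; adjusted 0.819 and 0.242), with r = 0.340 without the 2 farthest mice. For Spp1, also on CPM, it gave r = -0.110 and rho = -0.600 (exact permutation p = 0.819 and 0.242; adjusted 0.819 and 0.242), with r = -0.817 without the 2 farthest. On log2 CPM the 3 values of r were 0.640 (exact permutation p = 0.183), 0.136 (p = 0.719) and -0.022 (p = 0.989), none past 0.05. Only 21 June holds both genotypes, and with 2 mice it gives no correlation.

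The genes whose log2 levels were most like Clu over the 12 libraries were Dnajc14 (r = 0.94), which encodes a DnaJ-type co-chaperone, Klhl24 (0.93), a ubiquitin ligase adaptor, Ddah2 (0.93), Hdac11 (0.92), a deacetylase, and Chsy3 (0.92), a chondroitin sulfate synthase. Among those most like Spp1 were Qpct (r = 0.97), a glutaminyl cyclase, Vamp2 (0.95), a vesicle SNARE, Fkbp14 (0.94), a prolyl isomerase of the endoplasmic reticulum, and Terf2ip (0.93), a telomere protein. Qpct was a low gene, at 1.38 to 27.7 CPM.

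Osteopontin's relatives were not detected at this depth. The other SIBLING genes Ibsp, Dmp1, Dspp and Mepe had 0 counts in every library, which allows up to 0.187 to 0.447 CPM by library (3 counts, counting error only). Of 10 listed osteopontin receptor genes 7 were tested, and the most abundant were Cd44, at 911 ± 194 CPM in Ndr hilar, 1271 ± 183 CPM in WT hilar, 1455 ± 692 CPM in Ndr peripheral and 1598 ± 206 CPM in WT peripheral cultures (SD, n = 3 each), and the integrin beta gene Itgb1, at a mean of 1238 CPM. Genes for enzymes that act on osteopontin were led by Mmp7, a protease that cleaves it, at 878 CPM with a range of 281.8 to 2535 CPM, and Tgm2, a transglutaminase that crosslinks it, at 355 CPM. Of its listed regulators, the biliary factor gene Sox9 averaged 161 CPM and Ets1 averaged 95 CPM.

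For clusterin, the receptor genes Vldlr and Lrp8 averaged 59.4 and 20.7 CPM, and the convertase genes Furin and Pcsk6 averaged 216 and 45.0 CPM. The Hippo pathway coactivator genes Yap1 and Wwtr1 led its listed regulators, at 175 and 147 CPM. Other chaperones and apolipoproteins of body fluids were far below Clu, led by Hp (haptoglobin), at 76.2 CPM, and Apob, at 38.9 CPM. The listed complement genes summed to between 44.9 CPM (an Ndr peripheral library) and 837 CPM (a WT peripheral library). Of these genes, Cd55, which encodes a complement regulator, averaged 22.5 CPM. In mouse gut, Clu marks cells of regenerating epithelium; of a list of genes from that setting, the most abundant were Ccn2, at 1026 CPM, and Ankrd1, at 480 CPM.

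Across these lists, 58 of the 89 genes named were tested, and none passed an edgeR adjusted p of 0.05 in any of the 7 comparisons, as was so for all genes. At an unadjusted p under 0.05 there were 6 of 58 between genotypes in hilar cultures (2 higher and 4 lower in Ndr), 2 in peripheral cultures (both lower in Ndr) and 5 over mouse totals (2 higher, 3 lower). These are 10.3%, 3.45% and 8.62% of the 58, against 6.54%, 2.92% and 5.42% of all genes tested. Their median log2 differences were -0.13, -0.15 and -0.20, against medians near 0 over all genes tested (-0.0046, 0.033 and -0.0045). Between regions there were 6 in Ndr (3 higher and 3 lower in hilar cultures), 0 in WT and 3 over both genotypes (2 higher, 1 lower), and 3 for the interaction. These are 10.3%, 0%, 5.17% and 5.17% of the 58, against 10.3%, 0.506%, 6.07% and 3% of all genes tested.

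Because several regulators on the list act through promoter sequence, the 250 bases before an Spp1 start site are shown, from RefSeq on GRCm38.p6 (chr5:104434861-104435110, plus strand). Spp1 had 2 promoter entries, and the entry first by position was taken. The other entry is not shown. Capitals mark, from left to right, a TATA-type match (TATAAA), a RUNX-type match (AACCACA), an ETS-type match (GAGGAAGT) and the reverse complement of a CCAAT box.
Spp1 promoter: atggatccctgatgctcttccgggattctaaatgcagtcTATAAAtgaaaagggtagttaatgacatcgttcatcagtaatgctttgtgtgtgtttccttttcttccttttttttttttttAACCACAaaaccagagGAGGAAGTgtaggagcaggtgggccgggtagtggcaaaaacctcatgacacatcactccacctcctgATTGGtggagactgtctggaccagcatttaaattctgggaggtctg
These matches begin 211, 129, 113 and 46 bases before the start. On both strands of 32851 RefSeq promoter windows of the same length, 12.4% held TATAAA, 4.40% AACCACA, 2.44% GAGGAAGT and 33.8% CCAAT. The letters TGANTCA (AP-1), TGGGAA (RBPJ), AACAAT (SOX) and GGAATG (TEAD) were not in this window and were in 6.75%, 21.6%, 9.42% and 12.6% of windows. The motifs were chosen with the sequence in view, and a match is a description of letters only.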

How the data were processed

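The authors deposited raw read counts per gene for 12 libraries, from TruSeq RNA libraries sequenced on a NextSeq instrument per the labels' protocols. The submitters' processing notes name featureCounts and GRCm39. Aligner, annotation release and strand setting were not given in the sources used here. The authors also deposited normalized signal (the processing notes name DESeq2 1.34.0). By its values the deposited signal was whole reads divided by 1 factor per library: 100% came out whole within 0.01, and 43.1% of these reads equalled the raw count. No label or header records an adjustment for derivation date. Names came from GENCODE M21, which matched 52093 of 53700 identifiers. Per that annotation no gene overlaps Clu, and Gm42793, with at most 16 counts in a library, overlaps Spp1.

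Raw counts were fitted with edgeR 4.0.16 in R 4.3.3 (TMM, filterByExpr, robust quasi-likelihood test) with 1 coefficient per group over 12 libraries (15014 genes, 8 residual degrees of freedom), and over 6 mouse totals (15401 genes, 4 residual degrees of freedom). Benjamini-Hochberg adjustment ran over all genes tested, with a threshold of 0.05. The script was tested on simulated data. Alternatives used limma 3.58.1, DESeq2 1.42.0, ComBat-seq (sva 3.50.0; added after seeing the data) and left-out libraries. Groups came from genotype and liver region in the labels. Clu, Spp1 and all gene lists were chosen with earlier results of these data known. Besides these genes, the text names the 10 genes of highest mean CPM, the 5 most like each member (at least 5 mean CPM, prior count 2), and, per list, the 2 most abundant members and any past the threshold; cell type markers and proliferation genes are named for their level. Some genes that this rule names are not reported here. Same-numbered cultures come from the same animal, which pairs them; over 15014 genes their deviations from group means had r = 0.140 (mouse 1224), -0.340 (1220), -0.314 (1219), 0.333 (1221), 0.450 (1225) and -0.0624 (1223).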

Additional observations from a re-analysis of the deposited data

How the results depend on the processing

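On raw counts, neither gene passed an adjusted p of 0.05 in any comparison. Fits that left out a library or mouse gave 108 results of a gene in a comparison, and none passed. The same held under another normalization, no filter on low counts, limma-voom, DESeq2, only the libraries of 1 region, or the replicate block. It also held with date as a factor in the fit over groups. Of all 250 alternatives of a comparison, 6 passed, all on recovered reads or on the ComBat-seq rerun with genotype kept: Spp1 in hilar cultures (2.67 in both) and over mouse totals (1.79 in both), and Clu over mouse totals (0.54 in both, sign reversed from -0.15). Both tables also reversed the peripheral differences of Clu (0.11) and Spp1 (1.0), without passing. With genotype kept, mice 1224 and 1225 alone set the genotype term of that adjustment. With genotype not kept, reversed values were 0.11 (Clu, hilar minus peripheral, WT), -0.040 (Spp1, both genotypes) and 0.10 (Clu, mouse totals). With date as a factor, the reversed values were 1.22 (Spp1, peripheral) and 0.47 (Clu, mouse totals), and the hilar differences were 1.23 (Clu) and 3.21 (Spp1). Over mouse totals that fit sets mouse 1224 against mouse 1225 alone, at 13129 and 9488 CPM of Clu. The cause of the other reversals was not tested.

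Ranges over left-out libraries that crossed 0 were -0.12 to 0.75 (Clu, hilar Ndr minus WT), -0.49 to 0.38 (Clu, hilar minus peripheral, WT), -0.053 to 0.83 (Spp1, hilar minus peripheral, both genotypes), -0.45 to 0.14 (Clu, mouse totals; above 0 without mouse 1221) and -0.22 to 0.44 (Spp1, mouse totals; below 0 without mouse 1224 or 1225). The cause was not tested. Where an arm keeps 2 samples, the spread is shared with the other groups.

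With the mouse as a replicate block in edgeR, hilar minus peripheral in Ndr was 0.91 (Clu) and 1.39 (Spp1), and the interaction 1.25 and 2.03; with a random block in limma-voom (correlation -0.135) it was 0.91 and 1.36, and 1.27 and 2.05. The block changed no call.

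Over all genes, edgeR called 0 in each comparison in the main fit on raw counts. Over mouse totals it called 5 without the filter and 4 without Ndr mouse 1219. Without the Ndr peripheral culture of mouse 1219 it called 2 (peripheral) and 7 (Ndr region). Calls over mouse totals with date as a factor are left out, since that fit sets 1 mouse against 1 mouse. DESeq2 called 44 (hilar), 10 (peripheral), 124 (mouse totals), 79 (Ndr region), 0 (WT region), 2 (both genotypes) and 4 (interaction). Recovered reads gave 1514, 126, 6753, 30, 5, 0 and 0 in that order, the rerun with genotype kept 1524, 128, 6748, 29, 5, 0 and 0, and that with none kept 0 in each. At 3 mice a genotype, intervals of about 1 to 2 log2 units either way limit what can be seen.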
